A study of Mus musculus with 6 samples.

Results

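The 8 genes described here encode the receptors of sphingosine 1-phosphate (S1P) and the proteins that make, export and degrade it: the kinases Sphk1 and Sphk2, the exporter Spns2, the phosphatase Sgpp1, the lyase Sgpl1 and the receptors S1pr1, S1pr2 and S1pr3. They are 8 of 18193 genes read on 6 Affymetrix arrays of mouse uterine RNA. They were taken by gene symbol and were chosen by their measured group differences in part, since S1pr1 and Sphk1 were already known to differ between the groups on these arrays. Where a gene had several probe sets, the brightest on average stands for it. Their group differences are therefore a description of these arrays, and the adjusted p-values beside them are not independent evidence. The 3 control arrays held uteri labelled wild type, which the methods describe as Pgr cre/+ and Ctnnb1 f(ex3)/+ mice, and the 3 mutant arrays held uteri of Pgr cre/+ Ctnnb1 f(ex3)/+ mice, all from females at 4 weeks of age with no treatment named. Cre, driven by the Pgr locus in Pgr-expressing cells, cuts exon 3 out of Ctnnb1 in the mutant and leaves a β-catenin that escapes degradation, so whole uteri hold recombined and unrecombined cells. By the methods RNA was pooled within each genotype, so it remains unclear whether arrays of 1 group come from different animals. P-values reflect the spread among these arrays alone, which could be technical in part and whose source was not tested. Control replicate 2 stood apart in cell cycle genes and control replicate 3 in adipocyte markers, as given below. In whole tissue, more cells of a type and more RNA per cell cannot be told apart.

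S1P is a signaling lipid made from sphingosine, a breakdown product of ceramide. Sphk1 and Sphk2 phosphorylate sphingosine, Spns2 carries S1P out of the cell, Sgpp1 removes the phosphate again, and Sgpl1 cleaves S1P irreversibly. Outside the cell, S1P binds G protein-coupled receptors: S1pr1 couples to Gi proteins and holds endothelial junctions together and guides lymphocytes out of lymphoid organs, while S1pr2 and S1pr3 also couple to other classes of G protein. In the mouse uterus, sphingosine kinases are needed for normal decidual development in pregnancy.

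In the mutant uterus, the receptor S1pr1 and the degrading enzyme Sgpl1 were higher, and the kinase Sphk1, the exporter Spns2 and the receptor S1pr3 were lower. S1pr1 was 2.51-fold higher and Sgpl1 1.41-fold higher, and Sphk1 was 2.71-fold, S1pr3 2.04-fold and Spns2 1.95-fold lower. In all, 5 of the 8 genes passed an adjusted p of 0.05 in limma, against 12.0% of all genes, with 2 higher (5.61% of all genes) and 3 lower (6.36% of all genes). The 3 that did not pass were Sphk2, Sgpp1 and S1pr2. The groups did not overlap for 6 of the 8 genes, against 32.3% of all genes, with the mutant below in 4 (17.4% of all genes) and above in 2 (14.9% of all genes), and S1pr2 was the one of these that was not called. The median log2 fold change of the 8 genes was -0.52, against -0.01 over all genes. Without control replicate 1 only S1pr1 and Spns2 were called, and without mutant replicate 2 only S1pr1, Sphk1 and Spns2 were. With the methods' t-test 0 of the 8 passed after Benjamini-Hochberg adjustment, where 144 genes passed in all, and 6 of the 8 had an unadjusted p under 0.05, against 22.8% of all genes.

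**Figure D1:**
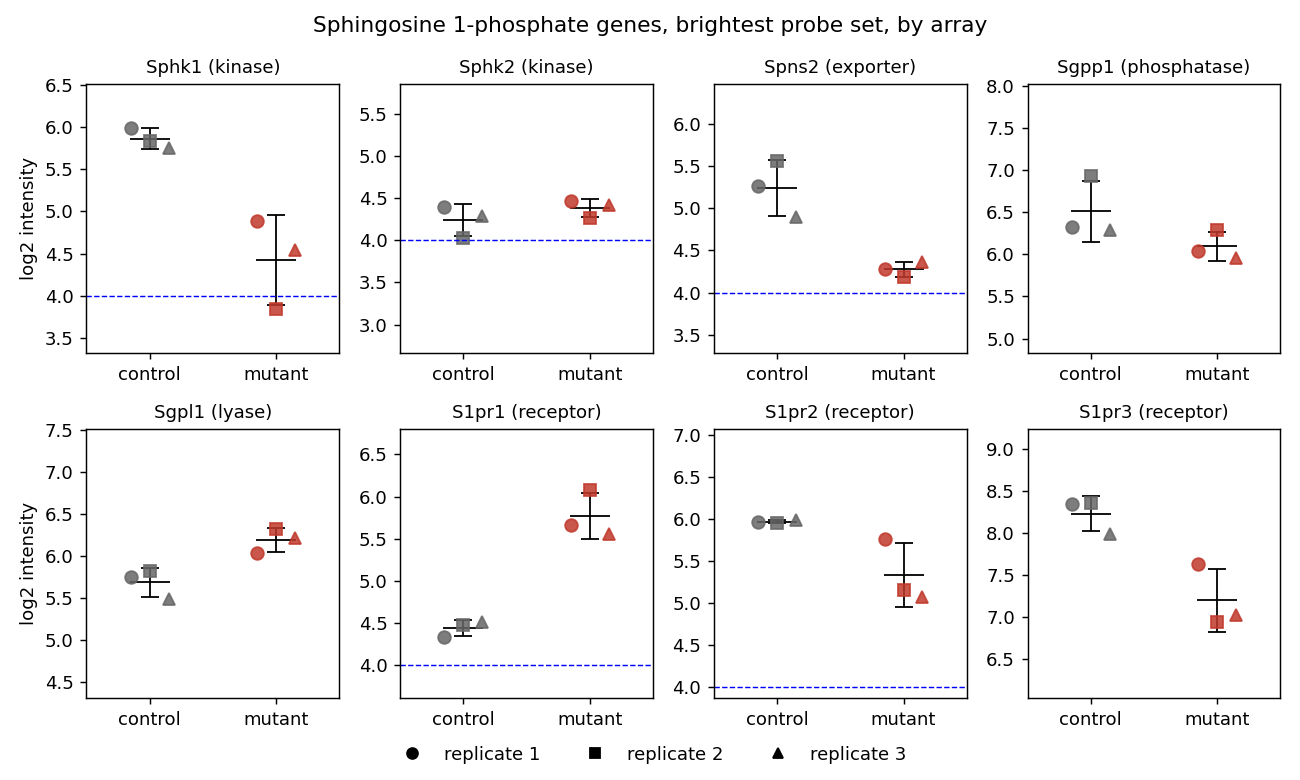
Each panel plots the log2 intensity (y axis) of one gene, read by its brightest probe set, with 3 grey control and 3 red mutant points, black bars for mean and SD and marker shapes for replicate numbers; every y axis spans the same width, with a blue dashed line at an intensity of 16. Mutant points lie above all control arrays for S1pr1 and Sgpl1, below them for Sphk1, Spns2, S1pr2 and S1pr3. For Sphk2 and Sgpp1 the groups overlap, by 1 mutant array each: mutant replicate 2 lies among the controls, and the other mutant arrays lie above them for Sphk2 and below them for Sgpp1.

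The arrays as a whole bear on these values in a few ways. The deposited intensities ran from 1.99 to 10886.56 with array medians of 7.23 to 7.42, and 62.3 to 62.6% of probe sets per array were under 16 (4 on the log2 scale), where changes may be understated. Lef1 and Axin2, targets of Wnt/β-catenin signaling, rose by 2.35 and 2.61 on the log2 scale (adjusted p = 9.56e-05 and 0.000107 from limma). Ctnnb1 itself read 0.33 higher (adjusted p = 0.0498), a call lost in 9 of 15 alternatives, and where its probes lie relative to exon 3 is not known here, so it does not check the labels. Of 8 uterus identity markers, all of which were above 16 on at least 1 array, 3 were lower (6.36% of all genes): Wnt7a at -1.71, Pgr, the gene that drives Cre, at -0.97 and Emx2 at -0.62. All mutants carry Pgr cre/+, while whether each control array did is not given. The lower Pgr therefore cannot be told apart from an effect of that allele. Over all called genes, signed by direction, the mean change was 0.73 on the log2 scale in mutant replicate 1, against 0.99 and 0.91 in mutant replicates 2 and 3. Over the 5 called genes of the S1P system the same measure was 0.82, 1.32 and 1.01. Control replicate 2 stood apart in 15 cell cycle genes, with a mean log2 intensity of 4.37 against 6.20 to 6.65 in the mutants, and 1 of these genes, the replication factor Mcm2, was called higher, a call that held with control replicate 3 left out and was lost without any other single array.

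Reference sequence was printed for the 3 called genes that have a single annotated start, since the arrays do not show which start a gene with several uses. RefSeq (GRCm38.p6) promoter entries were found for 7 of the 8 genes, all but S1pr1, with 12 starts in all, 5 of them for Sphk1 and 2 for Sphk2. The 250 bases before each start were searched on both strands for 4 motifs of TCF/LEF factors, the partners of β-catenin on DNA: CTTTGAA or its variant CTTTGAT, and the pair that ends differently, CTTTGTA or its variant CTTTGTT. No match overlapped another. Of the 12 stretches 1 held a match, that of Spns2, against 14.8% of 32851 promoters of the same length. Some of the 5 Sphk1 stretches overlap each other, so the 12 are not all separate sequences. The sequences run 5′ to 3′ on the gene's strand and end at the base before the start, with the match in capitals.
Spns2, chr11:72475028-72475277, minus strand: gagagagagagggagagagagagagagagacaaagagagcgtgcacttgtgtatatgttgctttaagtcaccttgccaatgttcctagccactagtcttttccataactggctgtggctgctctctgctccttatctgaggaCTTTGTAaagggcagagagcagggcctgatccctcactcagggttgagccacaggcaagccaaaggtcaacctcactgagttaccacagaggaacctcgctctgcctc
S1pr3, chr13:51408368-51408617, plus strand: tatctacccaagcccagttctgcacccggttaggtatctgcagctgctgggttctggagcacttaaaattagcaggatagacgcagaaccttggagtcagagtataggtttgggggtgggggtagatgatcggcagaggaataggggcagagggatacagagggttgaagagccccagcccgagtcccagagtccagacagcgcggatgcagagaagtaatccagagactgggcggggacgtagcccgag
Sgpl1, chr10:61147685-61147934, minus strand: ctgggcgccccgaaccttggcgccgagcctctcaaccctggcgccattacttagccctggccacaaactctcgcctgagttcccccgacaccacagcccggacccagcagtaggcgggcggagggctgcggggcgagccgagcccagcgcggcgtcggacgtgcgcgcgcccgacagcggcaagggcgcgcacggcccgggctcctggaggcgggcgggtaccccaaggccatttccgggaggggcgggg
The Spns2 match CTTTGTA lies at -108 to -102 from the start, and the stretches of S1pr3 and Sgpl1 hold no such letters. The Sgpl1 stretch has 74.8% G and C, against 56.4% for S1pr3 and 51.6% for Spns2. These letters are a description of the reference genome, and no binding was measured on the arrays.

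Sphk1, the kinase whose activity rises with growth factor signals, read 6.0, 5.84 and 5.75 (log2 intensity) in control replicates 1, 2 and 3, against 4.89, 3.84 and 4.54 in the mutant replicates, which are in the same order throughout. All mutant arrays lay below all control arrays, and mutant replicate 2, the lowest, fell under an intensity of 16. Sphk1 thus differed by -1.44 in log2 fold change (limma, SE 0.24, adjusted p = 0.0102), and without control replicate 1 it was -1.37 (adjusted p = 0.0503). The mutant arrays were spread more widely than the controls, with SDs of 0.54 and 0.13 (n = 3 arrays each). A dimmer Sphk1 probe set, below 16 on every array, had values of 2.86 to 3.03 in the controls and 2.27 to 2.64 in the mutants and was also lower (log2 fold change -0.49, adjusted p = 0.0347 over all probe sets). Both Sphk1 probe sets thus had separate groups, and mutant replicate 2 was the lowest array on each.

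Sphk2, the second kinase, which is found in the nucleus and mitochondria as well as the cytoplasm, had log2 intensities of 4.40, 4.03 and 4.29 in the controls and 4.46, 4.27 and 4.41 in the mutants. The groups overlapped, with a log2 fold change of 0.14 (95% confidence interval -0.12 to 0.41, adjusted p = 0.493 from limma), so a rise by more than 0.41 or a fall by more than 0.12 lies outside the interval. A dimmer Sphk2 probe set, below 16 on every array, read 3.50 to 3.79 in the controls and 2.89 to 3.45 in the mutants, at -0.44 (adjusted p = 0.133 over all probe sets), with no overlap between the groups. The sign for Sphk2 thus differed between its probe sets, and neither was called.

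Spns2, the transporter through which endothelial and other cells release S1P, had log2 intensities of 5.27, 5.56 and 4.90 in the controls and 4.28, 4.19 and 4.36 in the mutants. The mutant arrays lay close together below all controls, and the controls were spread, with control replicate 2 highest. A single probe set carries the symbol, with a log2 fold change of -0.96 (limma, SE 0.16, adjusted p = 0.0097) that stayed between -1.14 and -0.81 with an adjusted p of at most 0.0471 when any 1 array was left out. The smallest of these changes was the one without control replicate 2.

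Sgpp1, the phosphatase that returns S1P to sphingosine in the endoplasmic reticulum, had log2 intensities of 6.32, 6.93 and 6.28 in the controls and 6.04, 6.29 and 5.96 in the mutants. The groups met at their edges, and control replicate 2 stood above the other arrays. At -0.41 in log2 fold change (limma, SE 0.18, adjusted p = 0.198) Sgpp1 was not called, and without control replicate 2 it was -0.21. A second probe set read -0.38 and the third, below 16 on every array, -0.00, and neither was called. The brightest Sgpp1 probe set is of the type whose probes may match more than one transcript.

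Sgpl1, the lyase that removes S1P from the sphingolipid pool for good, had log2 intensities of 5.76, 5.82 and 5.49 in the controls and 6.04, 6.32 and 6.21 in the mutants. All mutant arrays lay above all controls, with a gap of 0.22 between the nearest 2 arrays. Limma gave a log2 fold change of 0.50 (SE 0.12, adjusted p = 0.0338). This call was lost without control replicate 1 (0.53, adjusted p = 0.0895), control replicate 3 (0.40, adjusted p = 0.0801), mutant replicate 2 (0.43, adjusted p = 0.113) or mutant replicate 3 (0.49, adjusted p = 0.0891), and with the mean of the gene's probe sets (0.30, adjusted p = 0.0951). The other Sgpl1 probe set lay below 16 on every array and read 0.11.

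S1pr1 had the lowest p of the 8 genes. Its log2 intensities were 4.33, 4.47 and 4.51 in the controls and 5.66, 6.08 and 5.56 in the mutants. Every mutant array lay more than 1 above every control array, and the controls agreed closely (SD 0.09, n = 3 arrays). S1pr1, read by 1 probe set, was 1.33 higher on the log2 scale (limma, SE 0.14, adjusted p = 0.00171). Leaving out any 1 array gave 1.17 to 1.43 with an adjusted p of at most 0.0129.

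S1pr3, a receptor of smooth muscle and other mesenchymal cells, went the other way. Its log2 intensities were 8.35, 8.36 and 7.98 in the controls and 7.63, 6.95 and 7.03 in the mutants. All mutant arrays lay below all controls, and mutant replicate 1 was nearest to them. This came to a log2 fold change of -1.03 (limma, SE 0.19, adjusted p = 0.0152). The call did not hold without control replicate 1 (-0.97, adjusted p = 0.0671) or when mutant replicate 2 was left out (-0.90, adjusted p = 0.0593). A second probe set read 4.06 to 4.34 in the controls and 3.14 to 3.81 in the mutants and was lower as well (-0.80, adjusted p = 0.0272 over all probe sets). The dimmest one, below 16 on every array, read 0.16 (adjusted p = 0.386) with its mutant arrays above the controls, and the mean of the 3 probe sets gave -0.55 (adjusted p = 0.0358).

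S1pr2, a receptor that couples to several classes of G protein, had nearly equal log2 intensities of 5.97, 5.95 and 5.98 in the controls and values of 5.77, 5.16 and 5.07 in the mutants. The groups did not overlap, but mutant replicate 1 lay near the controls. S1pr2 was not called, at -0.64 in log2 fold change (limma, SE 0.17, adjusted p = 0.0559). Without mutant replicate 1 it was -0.85 and passed (adjusted p = 0.00209), and it also passed with dim genes left out (adjusted p = 0.0474) and with an intensity trend (adjusted p = 0.0491). The second S1pr2 probe set read 5.43 to 5.52 in the controls and 4.70 to 5.27 in the mutants, at -0.49 (adjusted p = 0.0766 over all probe sets). It is of the type whose probes may bind other transcripts.

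**Figure D2:**
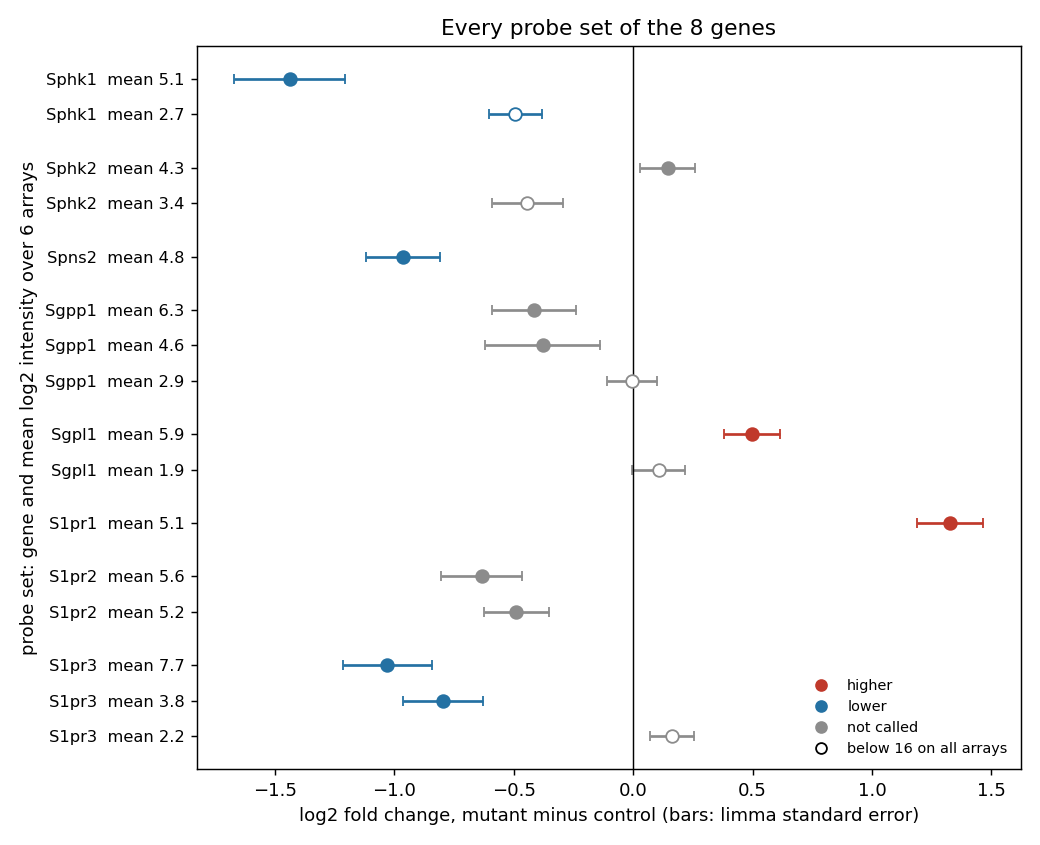
Each point is one of the 16 probe sets of the 8 genes, placed on the x axis by its log2 fold change (mutant minus control) with limma's standard error as the bar; the y axis names the gene and the mean log2 intensity, colors give the call over all probe sets (red for higher, blue for lower, grey for none), and open points lay below an intensity of 16 on all 6 arrays. Of the 16 probe sets 2 are higher and 5 lower, and the open points lie nearer to 0 than the filled point of the same gene for Sphk1, Sgpp1, Sgpl1 and S1pr3.

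Read one by one, 7 of the 16 probe sets were called, against 6.91% of all 45037 probe sets. Of the 8 probe sets that did not represent a gene, 2 were lower (3.41% of all probe sets), for Sphk1 and S1pr3, none was higher, and 5 lay below 16 on every array. They were read from the same RNA as the brightest sets and are no separate samples. With 1 array left out the count fell to 3 (control replicate 1, or mutant replicate 2 or 3) or 4 (control replicate 2 or 3), or rose to 9 (mutant replicate 1).

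Differences between 2 genes within an array cancel any factor shared by the whole array, though not the effects of a quantile step. Taken relative to the control mean, the difference between S1pr1 and S1pr3 was -0.22, -0.10 and 0.32 in the controls and 1.83, 2.92 and 2.32 in the mutants. S1pr1 gained on S1pr3 by 2.36 on the log2 scale on average (SD 0.55, n = 3 mutant arrays). The mutant arrays were all above the controls, which follows from S1pr1 being above and S1pr3 below the controls on every mutant array. The same holds for S1pr1 with S1pr2 and for Sgpl1 with Sphk1 or Spns2, so the separation in these pairs adds no support. S1pr1 gained on S1pr2 by 1.96 (SD 0.51), with mutant values of 1.43, 2.45 and 2.01. S1pr2 and S1pr3 moved more nearly together, at a mean of 0.39 with mutant values of 0.40, 0.47 and 0.31 and control values up to 0.26. Among the enzymes, Sgpl1 gained on Sphk1 by 1.94 (SD 0.67), with mutant values of 1.32, 2.65 and 1.84. Sphk2 gained on Sphk1 by 1.58 (SD 0.43), and Sgpl1 on Spns2 by 1.46 (SD 0.19). Mutant replicate 2 had the largest difference and mutant replicate 1 the smallest in each pair but that of S1pr2 and S1pr3. With 3 arrays against 3, an exact two-sided permutation test cannot go below 0.10, so none was run on these differences.

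**Figure D3:**
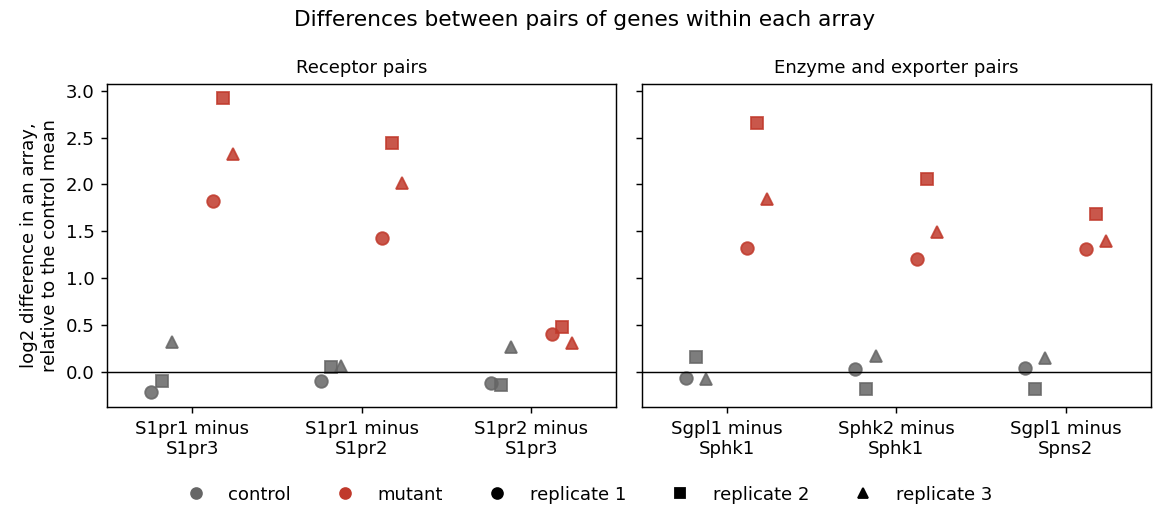
Each point is one array, control in grey and mutant in red, with the replicate number as the marker shape, and the y axis gives the log2 intensity of the first gene minus that of the second, relative to the mean of the control arrays. The mutant arrays stand between 1.20 and 2.92 for the 5 pairs other than S1pr2 and S1pr3, whose mutant arrays stand between 0.31 and 0.47.

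The genes whose values over the 6 arrays ran most like those of each called gene were found by the root mean square difference of deviations from the gene's own mean, among 10252 genes with a mean log2 intensity of 4 or more. Nearest to S1pr1 were Sobp (0.06 on the log2 scale), Sp7, a transcription factor of bone-forming cells (0.11), and Pole4, a subunit of DNA polymerase epsilon (0.13). Nearest to Sphk1 were Hmga2, an architectural chromatin protein (0.12), Nt5e, the ectonucleotidase CD73 (0.13), and Tmie (0.14). Nearest to S1pr3 were Rev3l, the catalytic subunit of DNA polymerase zeta (0.07), Plscr4 (0.07) and Thbs3, a thrombospondin (0.08). Nearest to Spns2 were Lcorl (0.08), Fam234b (0.09) and Ier3, an immediate early gene (0.09), and nearest to Sgpl1 were Nlk, a kinase that acts on TCF/LEF factors (0.04), Lmo7 (0.04) and Pnpla2, the triglyceride lipase of fat (0.05). These are descriptions over 6 arrays that share one contrast.

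Beyond these genes, 8 others of the S1P system were measured, of which 1 was called, in the upward direction (5.61% of all genes). Their median log2 fold change was -0.13, against -0.01 over all genes. The lipid phosphatase Plpp1, which acts on S1P and related lipids at the cell surface, had log2 intensities of 8.02, 8.09 and 8.19 in the controls and 8.55, 8.91 and 8.70 in the mutants. It was 0.62 higher (adjusted p = 0.013 from limma), a call lost without control replicate 1. Its relatives Plpp2 and Plpp3 read -0.59 (adjusted p = 0.0606) and -0.18, neither called, with all mutant arrays below the controls. The receptor genes S1pr4 and S1pr5 did not pass (-0.19 and -0.09), nor did Mfsd2b, the exporter of red blood cells and platelets (0.18), or Apom, the carrier of S1P in plasma (0.04), and the 3 genes S1pr5, Mfsd2b and Apom lay below 16 on every array.

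Of 32 measured enzymes and regulators of ceramide and sphingolipid metabolism, 25 did not pass, 4 rose (5.61% of all genes) and 3 fell (6.36% of all genes), with a median of 0.07. Sptlc3, a subunit of serine palmitoyltransferase, which starts the pathway, rose to a log2 intensity of 5.61 ± 0.49 from 4.32 ± 0.12 in the controls (SD, n = 3 arrays a group), at 1.29 (adjusted p = 0.0116 from limma). Sgms2, a sphingomyelin synthase of the plasma membrane, fell from 7.84 ± 0.20 to 6.52 ± 0.39, at -1.32 (adjusted p = 0.0067), while Sgms1, the synthase of the Golgi, was 0.75 higher (adjusted p = 0.0431). Cers3, a ceramide synthase for very long fatty acids, was at -1.27 (adjusted p = 0.0168), with a control range of 3.43 to 4.35 and a mutant range of 2.40 to 2.99. All its mutant arrays lay below 16, and with intensities floored at 16 it was at -0.12 (adjusted p = 0.474). The ceramidase Acer3, which releases sphingosine from ceramide, was at -0.49 (adjusted p = 0.0367), and at -0.18 (adjusted p = 0.207) with the mean of its 4 probe sets. The ceramide kinase Cerk (0.40, adjusted p = 0.0328) and the neutral sphingomyelinase Smpd3 (0.44, adjusted p = 0.0478) were higher by small amounts. Smpd3 lay below 16 on every array, and its call was also lost with median centring (adjusted p = 0.057), quantile normalization (adjusted p = 0.0617), an intensity trend (adjusted p = 0.0647) and the mean of its probe sets (0.26, adjusted p = 0.169). Of these 7 calls that of Sgms2 held with any 1 array left out. The other 6 were all lost without control replicate 1, and it was the only such array for Sptlc3. Cers3 was also lost without mutant replicate 2, Acer3 without control replicate 2 or mutant replicates 1 or 3 in turn, Sgms1 and Smpd3 without any array but mutant replicate 1, and Cerk without any array.

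Of 14 genes that couple to or control the receptors, 11 did not pass, 1 rose (5.61% of all genes) and 2 fell (6.36% of all genes), with a median of 0.04. Gnai1, an inhibitory G protein α subunit, rose to a log2 intensity of 9.96 ± 0.19 from 9.03 ± 0.13 in the controls (SD, n = 3 arrays a group), at 0.94 (adjusted p = 0.00385 from limma). Its relatives Gnai2 and Gnai3 did not pass, at -0.08 and 0.05. Arrb1, an arrestin that takes receptors off the membrane, was at -0.55 (adjusted p = 0.0191) and Stat3, a transcription factor tied to S1pr1 signaling in tumors, at -0.45 (adjusted p = 0.0116), and both calls were lost without control replicate 1, that of Arrb1 also without control replicate 3 or mutant replicates 2 or 3 in turn. Klf2, a transcription factor that induces S1pr1 in lymphocytes, had log2 intensities of 6.75 to 7.03 in the controls and 6.86 to 7.34 in the mutants, which overlapped (0.17, adjusted p = 0.52). Cd69, which draws S1pr1 off the surface of lymphocytes, lay below 16 on every array.

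Lysophosphatidic acid signals through a sister family of receptors. Of its 5 measured genes 1 was called, upward (5.61% of all genes), with a median of -0.30. Lpar1 rose from 7.22, 7.19 and 7.27 in the controls to 8.17, 8.16 and 8.18 in the mutants, with little spread in either group, at 0.94 (adjusted p = 0.000504 from limma). The other 4 receptors Lpar2, Lpar3, Lpar4 and Lpar6 read -0.29, -0.32, -0.41 and -0.30, none of them called. Lpar2 lay below an intensity of 16 on every array, and Lpar3 on every array but control replicate 2. Lpar3, the receptor that times embryo implantation in mice, overlapped between the groups.

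Markers of the cells that carry these receptors were read on the same arrays, where 5.61% of all genes were called higher and 6.36% lower. Of 14 blood endothelial markers none was higher and 1, Tek, was lower (-0.85, adjusted p = 0.0282 from limma), with a median of 0.03, and that call was lost without control replicate 1, control replicate 2, mutant replicate 2 or mutant replicate 3. Between the groups 7 of the 14 overlapped, 3 were separate with the mutant below and 4 with the mutant above. Those below were Tek, Vwf at -0.57 and Pecam1 at -0.20, of which only Tek was called. Those above were Robo4 at 0.35, Eng at 0.34, Emcn at 0.29 and Plvap at 0.20, none of these 4 called. Over all genes 17.4% were separate with the mutant below and 14.9% with the mutant above. The summed intensity of the 14 was 1356 to 1440 in the controls and 1312 to 1521 in the mutants, and each was above 16 on at least 1 array. The part of endothelial cells in the S1pr1 result was not tested. Of 5 lymphatic endothelial markers none was called (summed intensity 264 to 368 and 305 to 419), and the 2 with the lowest p, Prox1 and Lyve1, read 0.77 (adjusted p = 0.0734) and 0.45 (adjusted p = 0.144), with Prox1 called without mutant replicate 1 (0.94, adjusted p = 0.0467). Of 10 lymphocyte markers none was called, 8 lay below 16 on every array, among them Cd3e, Cd4, Cd8a and Ms4a1, and Cd3g and Cd4 had the lowest p (adjusted p = 0.108 and 0.41). Lymphocyte transcripts were thus near the floor of the arrays in both groups, with summed intensities of 84 to 90 in the controls and 78 to 91 in the mutants.

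Of 9 smooth muscle markers none was called, with a median of -0.15 and summed intensities of 11295 to 13126 in the controls and 11280 to 12906 in the mutants, and the lowest p were those of Synpo2 (-0.49, adjusted p = 0.0551) and Lmod1 (-0.27, adjusted p = 0.146). Of 9 epithelial markers 1, Krt18, was lower (-0.80, adjusted p = 0.00584), against 6.36% of all genes, with a median of -0.40 and summed intensities of 4860 to 5753 and 3497 to 4974. The groups overlapped for 6 of these 9, and 32.3% of all genes did not overlap. Besides Krt18, the markers read -0.48 for Krt8, -0.46 for Esrp1, -0.40 for Cldn7 and -0.40 for Cldn3. Krt19 read -0.31, Cdh1 -0.28, Epcam -0.04 and Cldn4 0.24, and none of these was called. The part of epithelial cells in the lower Sphk1, Spns2 and S1pr3 was not tested. Of 10 stromal fibroblast markers none was called (median -0.22, summed intensities of 26245 to 27429 and 24338 to 26189), with the lowest p for Pdgfra and Lum (adjusted p = 0.101 and 0.138). Of 11 macrophage markers 4 were higher (5.61% of all genes) and none was lower: C1qb, C1qa, Fcgr1 and C1qc at 0.45 to 0.56, with summed intensities of 1067 to 1132 and 1239 to 1405. All 4 of these calls were lost without control replicate 1, those of Fcgr1 and C1qc without other arrays too. With the mean of a gene's probe sets the calls of C1qb (0.29, adjusted p = 0.185 from limma) and Fcgr1 (0.34, adjusted p = 0.0655) were also lost. Of 8 adipocyte markers 2, Retn and Cidec, were higher (2.35 and 1.82), against 5.61% of all genes. Their list had a median of 1.45 and summed intensities of 591 to 2300 in the controls and 3581 to 5675 in the mutants. The call of Retn was lost without control replicate 1 or any 1 mutant array. Control replicate 3 stood apart in this list, with log2 intensities of 5.23 against 7.92 and 8.44 in the other controls for Adipoq, 6.57 against 9.23 and 9.82 for Fabp4, and 4.82 against 6.90 and 7.10 for Retn. The other 7 macrophage and 6 adipocyte markers did not pass, and the part of these cells in the S1pr1 and Sgpl1 results was not tested.

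**Figure D4:**
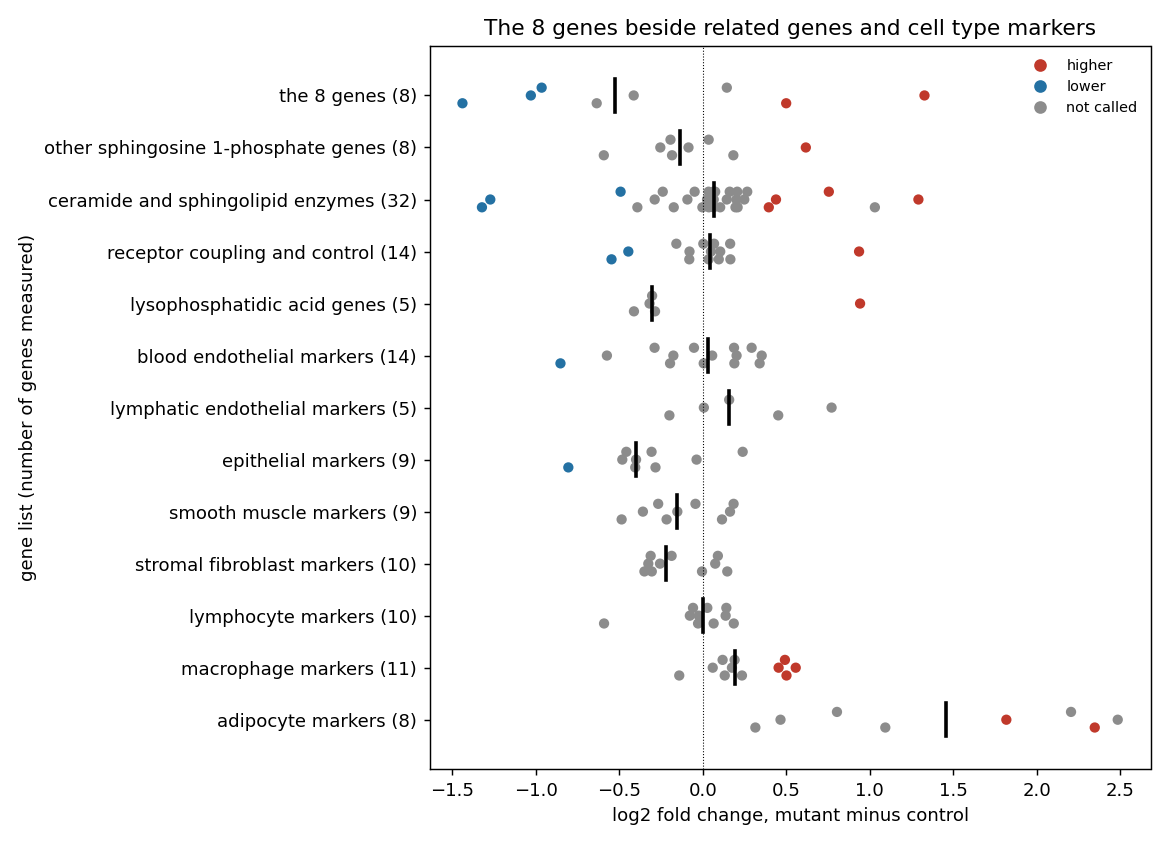
Points are genes, placed by log2 fold change (mutant minus control, x axis) and by list (y axis, with how many genes were measured); limma's calls are red for higher, blue for lower and grey for none, and a black bar is a list's median. The 8 genes spread from -1.44 to 1.33 around a median of -0.52, and the medians of the marker lists lie between -0.40 for epithelium and 1.45 for adipocytes.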

How the data were processed

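Uterine RNA was read on 6 Affymetrix arrays, 3 control and 3 mutant, grouped and numbered by the sample titles. The deposited values are linear intensities, 1 for each probe set on each array. RMA, with no version, is named in the submitters' processing notes, and the methods refer to earlier work for the array analysis. Array medians are nearly equal, as after scaling between arrays, so group differences are relative to that scaling. Of detection calls and filters nothing is given in the sources used here, and the number of arrays limits the precision. Log2 was taken of the intensities after a floor of 1, which changed 0 values.

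Platform annotation gave 1 symbol to 34945 of 45037 probe sets, several to 932 (not named) and none to 9160, and 34741 had a gene identifier in RefSeq (GRCm38.p6). Each of 18193 genes was read by its probe set with the highest mean. The groups were compared in R 4.3.3 with limma 3.58.1 (lmFit, eBayes, no covariate), adjusted by Benjamini-Hochberg over all genes, or over all 45037 probe sets where probe sets are compared, and called under an adjusted p of 0.05. Intervals are limma's. The steps were tested on simulated data. At most 2.11% of values were identical between any 2 arrays.

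The 8 genes and all lists were chosen with earlier results of these data known. Named are the 8 genes, up to 4 called genes of each list with the largest change each way or else the 2 with the lowest p, and the 3 genes most like each called one; other genes were named after their values were seen. The alternatives were median centring, quantile normalization, the mean of probe sets, a filter on dim genes, a floor of 16, a block for the replicate number, an intensity trend, leaving out each array and the methods' t-test, which the methods do not tie to the arrays. Leaving out control replicate 2 and mutant replicate 1 together was chosen after seeing the data.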

Additional observations from a re-analysis of the deposited data

How the results depend on the processing

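The number of genes called, 2178, was 144 with the methods' t-test after Benjamini-Hochberg adjustment, 852 to 2110 with any 1 array left out, and 1532 with control replicate 2 and mutant replicate 1 both left out. Of the 8 genes 5 were called, 0 with the methods' t-test and 2 to 6 with any 1 array left out. It was 4 with the mean of probe sets (without Sgpl1), and 6, with S1pr2 added, when dim genes were left out, with an intensity trend, and without control replicate 2 and mutant replicate 1. The same 5 were called under both other scalings and with a floor of 16. Of 16 probe sets 7 were called, and 3 to 9 with any 1 array left out. Sphk2 changed sign with the mean of its probe sets (-0.15, adjusted p = 0.308 from limma) and without control replicate 2 and mutant replicate 1 (-0.0005), and was called nowhere; the cause was not tested. No other of the 8 genes changed sign.

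Arrays with the same replicate number deviated from their group means with correlations of 0.04, 0.28 and 0.19 across probe sets with a mean log2 intensity of 4 or more. Those of replicates 2 and 3 were the highest of any control array with any mutant array, and differently numbered arrays ran down to -0.25. Deviations from a group mean cancel within the group, so positive and negative correlations partly follow from each other. Control replicate 1, however, ran most like mutant replicate 3 (0.15). Whether the numbers mark pairs is thus not settled, and the main fit has no block. With the replicate number as a block, 2051 genes, the same 5 of the 8 genes and 8 of the 16 probe sets were called. Among the named genes the block added Prox1 (adjusted p = 0.00807) and Lyve1 (adjusted p = 0.0253) and lost Cerk (adjusted p = 0.0664), Smpd3 (adjusted p = 0.0544), Fcgr1, Ctnnb1 and Nlk. Sgpp1 stayed uncalled in limma, at an adjusted p of 0.0605 with the block against 0.198 without it. Low intensities limit Sphk1, Sphk2 and the dimmest probe sets, where changes may be understated. S1pr1 in the controls (intensities of 20.14 to 22.82) and Spns2 in the mutants (18.23 to 20.57) also lay not far above 16.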
